A study of Saccharomyces cerevisiae with 2 samples.

Results

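Chaperones and heat shock proteins were examined as a list of 46 yeast genes, taken by their symbols from the array annotation, and 44 of them had a probe set annotated with that gene alone, among 5656 genes measured in this way. *SSB1* and *SSB2* were represented only by a probe set that they share. Chaperones bind unfolded proteins and let them fold, cross membranes or leave aggregates. Hsp70 works in cycles of ATP hydrolysis that J-proteins start and nucleotide exchange factors end, Hsp90 matures kinases and receptors with a set of co-chaperones, and the chaperonins enclose a substrate in a chamber. In yeast each compartment has a system of its own, and the heat shock factor Hsf1 keeps many of these genes transcribed in the absence of heat.

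The 2 samples were replicates of 1 group, an *sdh3*Δ deletion mutant that lacks a membrane anchor subunit of succinate dehydrogenase. Its parent was CENPK 113–5D, of mating type a, which carries *MAL2–8C*, *SUC2* and *URA3–52*. The mutant was made by PCR-based allele replacement, with the *URA3* gene of *Kluyveromyces lactis* as a marker that could be selected against afterwards, and was grown aerobically in minimal medium with uracil. Cells were taken when glucose had come down to 20 g/liter, and total RNA was measured on Affymetrix Yeast Genome S98 arrays. Each transcript is read there by a probe set, made of several short oligonucleotides. The sources do not say whether the replicates came from separate cultures, so their spread may be technical. No array of a reference strain was analysed here, so every value below describes the mutant alone. With 2 arrays of 1 group no test was possible, and the difference between the arrays is given as the spread of each level. That spread also holds any offset between the arrays as a whole.

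*SDH3*, the deleted gene, had intensities of 22.0 in replicate 1 and 29.3 in replicate 2, below the background limit on both arrays. This limit was the highest value of 15 control probe sets for *Bacillus* genes that yeast does not have, 54.7 in replicate 1 and 82.7 in replicate 2. All 15 of these controls, and all 9 probe sets for the RNAs spiked in before hybridization, were brighter in replicate 2, with median log2 ratios of 0.67 and 0.49. For RNA quality, the ratio of the 3' to the 5' probe set of actin was 1.02 in replicate 1 and 1.13 in replicate 2, and that of *SPT15* was 1.03 and 0.927. Over 6504 probe sets named for 1 gene the median log2 ratio of replicate 2 over replicate 1 was -0.10, with an SD of 0.72. Over the 2728 of these above the limit on both arrays it was 0.20, with an SD of 0.77. The part of these array differences in the results below was not tested.

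Most of the chaperone genes gave a signal in the mutant, and most of them were dimmer in replicate 2. Above the background limit on both arrays were 30 of the 44 members, compared with 41.9% of all named probe sets. A further 11 members were above it in replicate 1 alone, as were 28.2% of named probe sets, and *ECM10*, *HSP30* and *SSA3* were above it on neither array. The log2 ratio of replicate 2 over replicate 1 was below 0 for 34 of the 44, against 54.9% of named probe sets, and its median was -0.57. It was above 0 for the other 10 members, compared with 45.1%. With the arrays scaled in other ways, 33 to 41 of the 44 were lower in replicate 2. The 41 came with centring on the spiked-in RNAs, which lowers the ratio of every probe set alike. The 33 came with centring on the median of all named probe sets, which by construction leaves as many of them lower as higher. The shares of named probe sets that were lower under the other scalings were not computed, so 54.9% is no measure for these counts. Over 2-fold lower in replicate 2 were 13 members, which is 29.5% of the 44, compared with 12.0% of named probe sets. With values under the limit raised to it, 10 members were, compared with 5.73%. Over 2-fold higher was 1 member, *ZUO1*, compared with 4.04%. Of the 30 members above the limit on both arrays, 23 were lower in replicate 2 and 7 of these by over 2-fold, while 39.3% and 9.79% of the named probe sets above the limit were. *ZUO1* is also among the 30, and 8.76% of the named probe sets above the limit were over 2-fold higher. When the ratios were centred on the spiked-in RNAs, which lowered every log2 ratio by 0.49, 25 members were over 2-fold lower and 0 over 2-fold higher, compared with 29.3% and 0.369% of named probe sets.

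**Figure D1:**
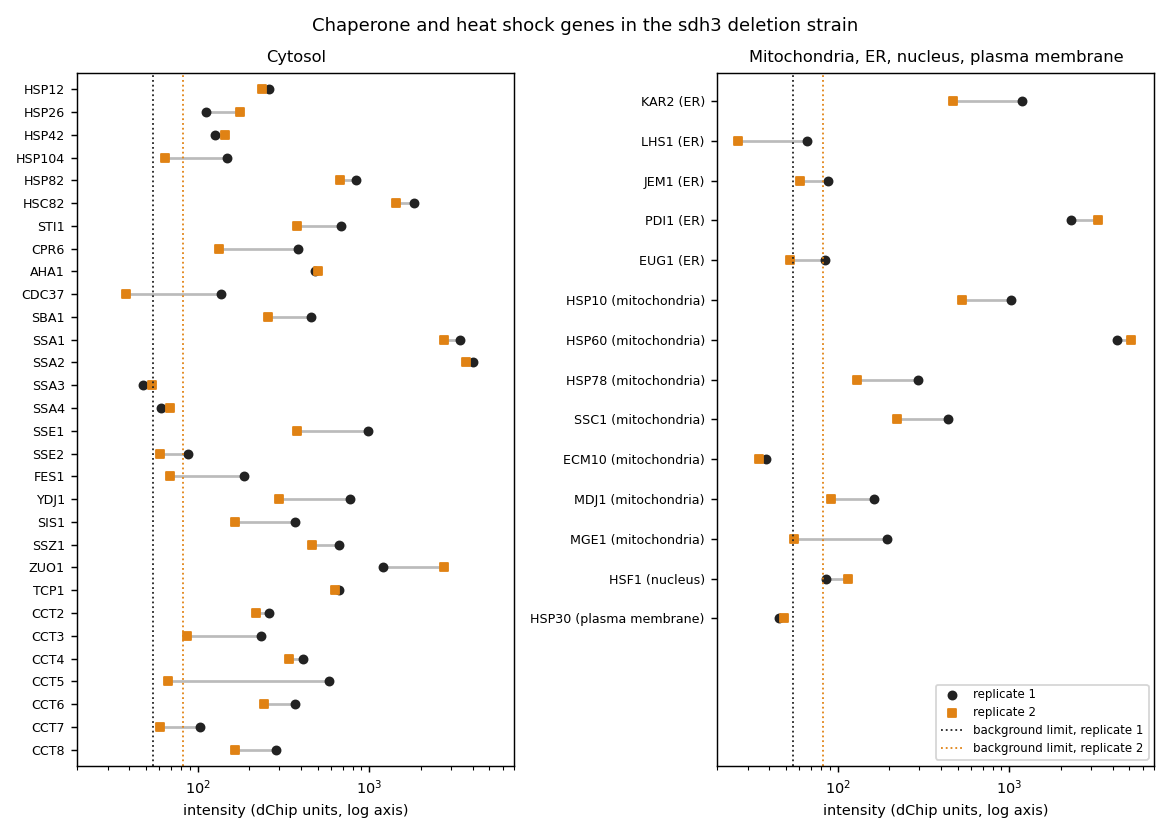
Intensity of the 44 members on a log axis, with replicate 1 as black circles, replicate 2 as orange squares and the background limits of 54.7 and 82.7 as dotted lines. The arrays lie close together for the Ssa genes, both Hsp90 genes and *AHA1*, and far apart for *CCT5*, *CDC37* and *MGE1*, which cross the limit of replicate 2.

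*HSF1*, the heat shock transcription factor, was close to background in the mutant, with intensities of 85.4 in replicate 1 and 115 in replicate 2. Its level was 100.3 ± 21.0 (SD, n = 2), with the higher value in replicate 2. The 3 genes classed as small heat shock proteins were all above the limit on both arrays, compared with 41.9% of named probe sets. The products of *HSP26* and *HSP42* hold unfolded proteins in a soluble state. *HSP26* had 113 and 178, a log2 ratio of 0.66, and *HSP42* had 127 and 144, a log2 ratio of 0.18. *HSP12*, whose small product associates with membranes under stress, had 262 and 237. The values of *HSP12* and *HSP42* thus lay within 1.13-fold of each other, and those of *HSP26* within 1.58-fold. *HSP30*, which encodes a stress protein of the plasma membrane, had 45.7 and 48.7, below the limit both times. The direction between the arrays turned for *HSF1*, *HSP42* and *HSP30* with centring on the spiked-in RNAs.

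The disaggregases, ring-shaped ATPases that pull proteins out of aggregates, were dimmer in replicate 2 both in the cytosol and in mitochondria. *HSP104*, the cytosolic one, had an intensity of 148 in replicate 1 and 65.1 in replicate 2. The second value was not above background, so replicate 2 was at least 1.79-fold lower. *HSP78*, its mitochondrial homolog, had 296 and 130, both above the limit, and a level of 213 ± 117 (SD, n = 2). The log2 ratio of *HSP78* was -1.19. Of all named probe sets, 54.9% were lower in replicate 2.

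Among the cytosolic Hsp70 genes of the Ssa class, the constitutive pair gave a strong signal and the stress-inducible pair lay at background. *SSA1* had intensities of 3391 in replicate 1 and 2711 in replicate 2, and *SSA2* had 3999 and 3680.0. These values differed by 1.25-fold and 1.09-fold between the arrays, the lower one in replicate 2 for both. *SSA3* had 48.4 and 54.5, not above background on either array. *SSA4* had 61.7 and 69.0, which was over the limit of replicate 1 and under that of replicate 2. Transcripts of *SSA1* and *SSA2* are alike enough to bind the same probes. A pair of probe sets annotated with both genes had log2 ratios of -0.24 and 0.25, opposite in direction, and the probe set used for *SSA1* is not of the plain kind, so the split between these 2 genes is uncertain.

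The partners that drive the cytosolic Hsp70 cycle were lower in replicate 2 for all 5 genes, and for 4 of the 5 by over 2-fold, beside 54.9% and 12.0% of named probe sets. *YDJ1*, the general J-protein, had intensities of 774 in replicate 1 and 300 in replicate 2, with a level of 537 ± 335 (SD, n = 2). *SIS1*, an essential J-protein, had 368 and 166. Both genes were above the limit on both arrays, with log2 ratios of -1.37 and -1.15. *SSE1*, the main Hsp110 nucleotide exchange factor, had 986 and 381, a log2 ratio of -1.37. *FES1*, another exchange factor of Hsp70, had 187 and 69.5, and since the second value was not above background it was at least 2.26-fold lower in replicate 2. *SSE2*, the stress-inducible copy of *SSE1*, had 88.2 and 60.4, at least 1.07-fold lower. The values of *YDJ1*, *SIS1*, *SSE1* and *FES1* therefore lay farther apart between the arrays than those of *SSA1* and *SSA2*. The direction of all 5 partners held under every scaling tried, for *FES1* and *SSE2* with a replicate 2 value under the limit. With that value raised to the limit, the log2 ratio was -1.18 for *FES1* and only -0.093 for *SSE2*.

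**Figure D2:**
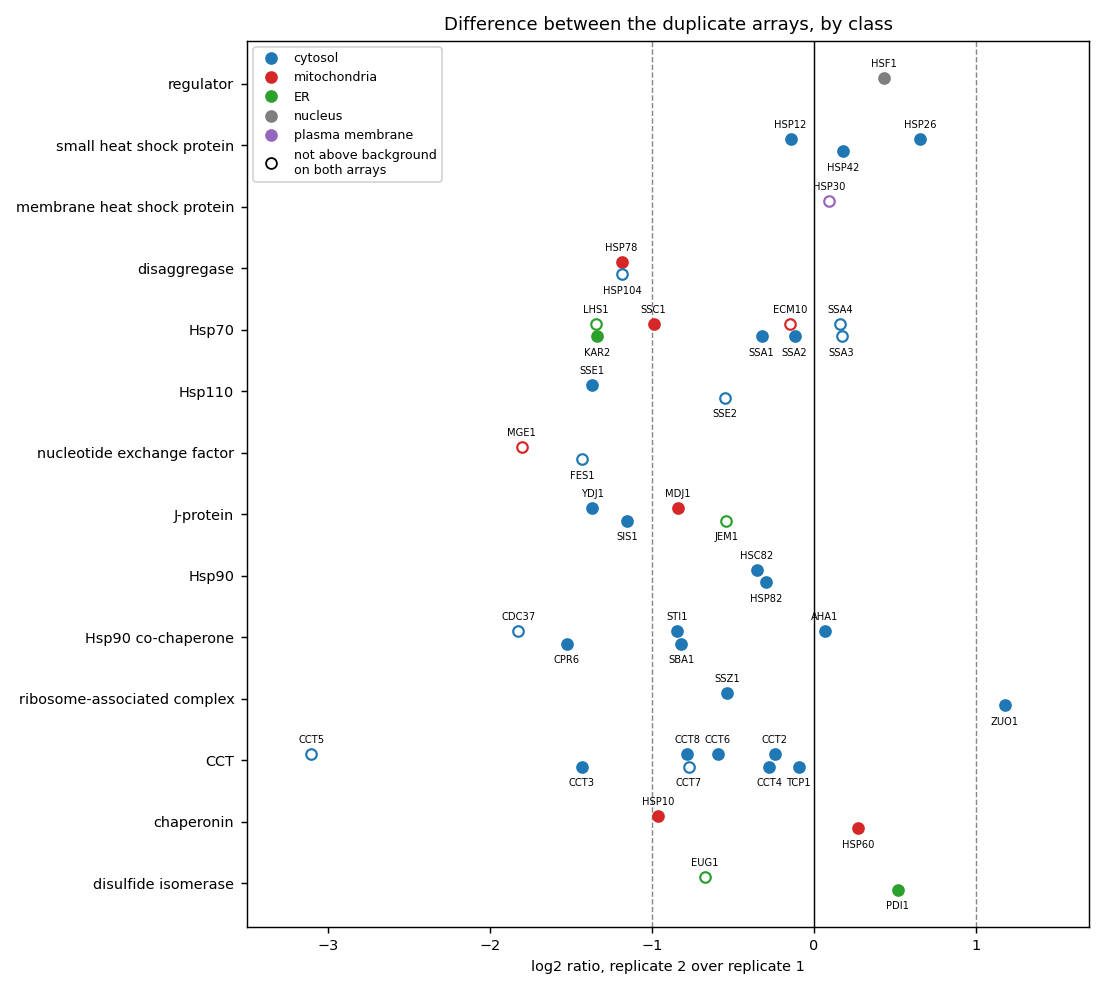
Log2 ratio of replicate 2 over replicate 1 for each of the 44 members by class, coloured by compartment, with open circles for members not above background on both arrays and dashed lines at -1 and 1. In the values as deposited, the exchange factors, the CCT subunits and the J-proteins outside the ribosome-associated complex lie to the left of 0 (*TCP1* is at 0.0023 when centred on all named probe sets), and only *ZUO1* lies to the right of 1.

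The probe sets annotated with 1 Hsp90 gene alone differed little between the arrays. The probe set of both genes and those of several co-chaperone genes differed more. *HSC82*, the constitutive Hsp90, had intensities of 1817 in replicate 1 and 1424 in replicate 2, a level of 1621 ± 278 (SD, n = 2). *HSP82*, the inducible one, had 834 and 679, or 756 ± 109 (SD, n = 2). The lower value was in replicate 2 for both, by 1.28-fold and 1.23-fold. A probe set annotated with both genes had 3465 and 1711, a 2.02-fold difference, so the probe sets of these genes disagreed on the size of the difference. The probe set used for *HSP82* is again not of the plain kind.

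Of the Hsp90 co-chaperone genes, *AHA1* repeated closely and *CDC37* did not. *AHA1*, which encodes an activator of the Hsp90 ATPase, had intensities of 482 and 505, a level of 493 ± 16.4 (SD, n = 2). *STI1*, whose product joins Hsp70 to Hsp90, had 683 and 381. *SBA1*, the p23 homolog, had 457 and 259. These last genes were lower in replicate 2 by 1.79-fold and 1.77-fold. *CPR6*, a peptidyl-prolyl isomerase bound to Hsp90, had 383 and 133, a log2 ratio of -1.53 with both values above the limit. *CDC37*, the co-chaperone for kinases, had 136.5 and 38.5. The second value was not above background, which leaves a difference of at least 1.65-fold. The direction for *AHA1* turned with centring by intensity and on the spiked-in RNAs, and that of the other co-chaperones held.

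At the ribosome, where a separate Hsp70 system meets the growing chain, *ZUO1* was brighter in replicate 2 and its partner *SSZ1* dimmer. *ZUO1*, the J-protein of the ribosome-associated complex, had intensities of 1207 in replicate 1 and 2731 in replicate 2, a log2 ratio of 1.18. *SSZ1*, its Hsp70 partner in that complex, had 670.4 and 462, a log2 ratio of -0.54. The genes of this complex thus differed in direction between the arrays. *SSB1* and *SSB2*, the Hsp70 genes that work with this complex, shared a probe set with 3666 and 5535, or 4601 ± 1321 (SD, n = 2). With centring by intensity the log2 ratio of *ZUO1* was 0.81 and it no longer differed by over 2-fold.

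The CCT chaperonin, a double ring of different subunits in equal number that folds actin and tubulin, was represented by 8 genes, all lower in replicate 2 except for *TCP1* with the ratios centred on the median of all named probe sets. *CCT5* had intensities of 580 in replicate 1 and 67.5 in replicate 2, the widest difference of any member. The second value was not above background, and *CCT5* was at least 7.01-fold lower. *CCT3* had 235 and 87.0, a log2 ratio of -1.43. At the other end, *TCP1* had 670.3 and 628, *CCT2* had 260.0 and 220 and *CCT4* had 413 and 341. These 3 genes differed by 1.07-fold, 1.18-fold and 1.21-fold. *CCT6* had 369 and 244, *CCT8* had 285 and 166 and *CCT7* had 103 and 60.4, the last value below the limit. Over the 6 subunits above the limit on both arrays the median log2 ratio was -0.44, against 0.20 over all named probe sets above it. Over all 8, with the values under the limit as measured, it was -0.68, against -0.10 over all named probe sets. As deposited, 54.9% of named probe sets were lower in replicate 2, and 39.3% of those above the limit on both arrays. With the ratios centred on the median of all named probe sets, *TCP1* had a log2 ratio of 0.0023, and the other 7 genes were lower.

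In mitochondria the Hsp70 system and the small chaperonin subunit were dimmer in replicate 2, and the large chaperonin subunit was not. *HSP60*, the chaperonin of the matrix, had intensities of 4241 in replicate 1 and 5120.1 in replicate 2, or 4681 ± 622 (SD, n = 2). *HSP10*, which caps the chamber of Hsp60, had 1028 and 528. The log2 ratios were 0.27 and -0.96, so the genes of this pair differed in direction, though that of *HSP60* turned with centring by intensity and on the spiked-in RNAs. *SSC1*, the Hsp70 that pulls imported proteins into the matrix, had 440.1 and 222. *MDJ1*, its J-protein, had 163 and 91.2. *MGE1*, its nucleotide exchange factor, had 194 and 55.7, of which the second was not above background, and was at least 2.35-fold lower in replicate 2. All 3 genes of this cycle were thus lower in replicate 2, beside 54.9% of named probe sets. The difference was 1.99-fold for *SSC1* and 1.79-fold for *MDJ1*. *ECM10*, a paralog of *SSC1*, had 38.5 and 34.7, not above background. Over the 7 mitochondrial members the median log2 ratio was -0.96, compared with -0.54 over the 30 cytosolic and -0.67 over the 5 ER members. Over members above the limit on both arrays these medians were -0.96, -0.34 and -0.41, the last of 2 genes, and with values raised to background that of the ER members was -0.030.

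**Figure D3:**
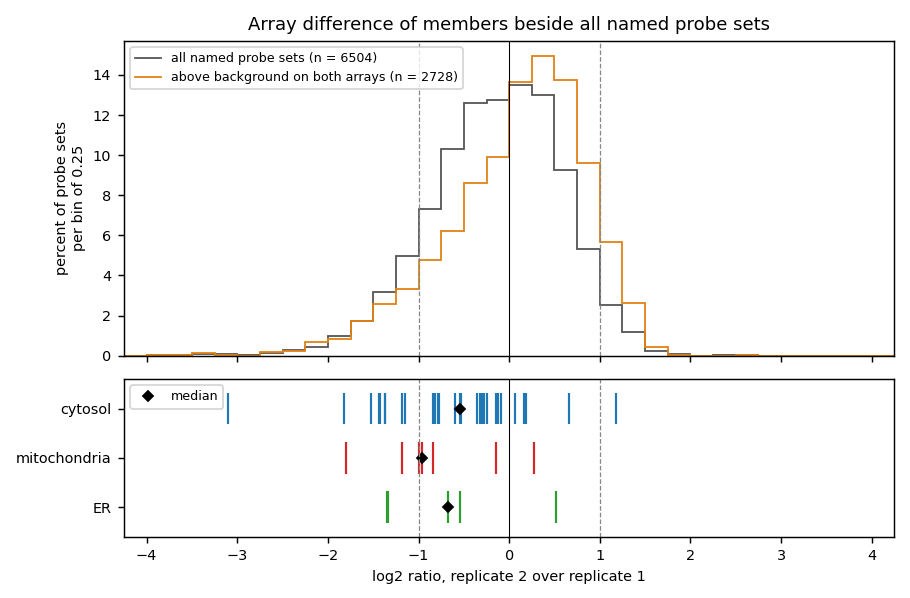
Upper panel, share of probe sets per bin of 0.25 in log2 ratio of replicate 2 over replicate 1, for all 6504 named probe sets in grey and the 2728 above background on both arrays in orange. Lower panel, each cytosolic, mitochondrial and ER member as a line and the medians of -0.54, -0.96 and -0.67 as diamonds, which lie to the left of the medians of both distributions, -0.10 and 0.20.

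In the ER, 2 of the 5 members, *PDI1* and *KAR2*, were above the limit on both arrays, beside 41.9% of named probe sets. The other 3 were above it in replicate 1 alone, beside 28.2%. *PDI1*, protein disulfide isomerase, had intensities of 2291 in replicate 1 and 3279 in replicate 2, or 2785 ± 698 (SD, n = 2). *KAR2*, which encodes BiP, the Hsp70 of the ER lumen, had 1190.1 and 471, or 831 ± 508 (SD, n = 2). They lay in opposite directions, *PDI1* higher in replicate 2 by 0.52 on the log2 scale and *KAR2* lower with a log2 ratio of -1.34. The direction of *KAR2* held under every scaling tried. That of *PDI1* kept its sign, but its log2 ratio fell to 0.14 with centring by intensity and to 0.024 with centring on the spiked-in RNAs. *LHS1*, an exchange factor of Kar2, had 66.6 and 26.2. *JEM1*, a J-protein of the ER, had 88.0 and 60.4, and *EUG1*, a homolog of Pdi1, had 84.5 and 53.0. In replicate 2 these 3 genes were not above background, so that *JEM1* was at least 1.06-fold and *EUG1* at least 1.02-fold lower, and no fold is given for *LHS1*, whose first value lay under the limit of replicate 2.

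A second list of 54 genes, of other J-proteins, Hsp90 co-chaperones, prefoldin, the nascent chain-associated complex and further folding and stress genes, was used to place the members. Of these, 52 had a probe set of their own, 21 were above background on both arrays and 10 on neither. Of all named probe sets, 41.9% were above it on both arrays and 29.3% on neither. In replicate 2, 34 of the 52 were lower, 9 by over 2-fold, and 2 were over 2-fold higher, with a median log2 ratio of -0.36. These counts stand beside 54.9%, 12.0% and 4.04% of named probe sets. Over the 21 genes above the limit on both arrays, 7 were lower and the median was 0.31. Among all named probe sets above the limit on both arrays, 39.3% were lower and the median was 0.20, in the same direction. Of the 9, only *UBI4*, which encodes polyubiquitin, was above the limit on both arrays, with intensities of 232 and 110 and a log2 ratio of -1.08. *EGD1*, of the nascent chain-associated complex, came next among genes above the limit, with 1435 and 1024. The largest differences upward were of *ZIM17*, which keeps mitochondrial Hsp70 soluble, at 171 and 417, and of *SCJ1*, a J-protein of the ER, at 267 and 586. Prefoldin, which hands unfolded actin and tubulin to CCT, had 5 of 6 genes lower in replicate 2, with 2 of the 6 above the limit on both arrays. Of these, named after their values were seen, *GIM5* had 147 and 116, and *PAC10* had 243 and 442.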

How the data were processed

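The authors scaled the scans of 2 Yeast Genome S98 arrays with Microarray Suite (MAS5, version 5) and computed with dChip, after its normalization, 1 intensity per probe set by the Perfect Match model. The deposited values are these intensities, on a linear scale, for 9335 probe sets. Of these, 60 are controls, 6504 have 1 gene in the platform annotation, 328 have several and 2503 are unnamed here. All 6504 matched the R64 gene table by gene ID, which served for names only. The plain probe set of a gene was used, and another kind only for *SSA1* and *HSP82*. Log2 ratios of replicate 2 over replicate 1 were taken without a pseudocount, since all named probe sets had values above 0. "Raised to background" sets a value under the limit of its array to that limit. Centring by intensity used lowess with a span of 0.3. The ratio and lowess steps were tested on simulated data whose noise was smaller than the SD of 0.72 over named probe sets. That test therefore does not bear on the counts past 2-fold. The number of arrays limits the precision.

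The members, classes and lists were chosen with earlier results of these data known. All members are named, and of the second list the 2 genes with the largest difference in each direction among those above background on both arrays. The planned protein identities and promoter motifs were not computed, since no sequences were used here, and reference values of the supplementary tables were not used. Alternatives are given in the closing section. Python 3.11.15, numpy 2.4.6, pandas 2.3.3, statsmodels 0.14.6 and matplotlib 3.10.9 were used.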

Additional observations from a re-analysis of the deposited data

How the results depend on the processing

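No paired analysis was possible because the series holds 1 group. The median log2 ratios of all, cytosolic, mitochondrial, ER and CCT members stayed below 0 under each alternative. The number of members above background stayed within 1.5 times of 30. It was 24 at a limit 2 times as high, 41 with the median control as the limit, 30 without replicate 1 and 41 without replicate 2. At the limit used, 41.9% of named probe sets were above it on both arrays and a further 28.2% in replicate 1 alone. The shares of named probe sets at the other limits were not computed. The ER median came to -0.030 with values raised to background, since 3 of its 5 members were not above the limit in replicate 2. The limit is higher in replicate 2, so this setting moved the log2 ratios of members under it upward. That of *LHS1* went from -1.34 to 0.31, and those of *ECM10*, *HSP30* and *SSA3* came to 0.60. The 13 members over 2-fold lower became 22 at a threshold of 1.5-fold (25.6% of named probe sets), 3 at 3-fold (3.23%), 25 with centring on the spiked-in RNAs (29.3%) and 7 among the 30 members above background on both arrays (9.79%). The 1 member over 2-fold higher became 2 at 1.5-fold (14.9%) and 0 at 3-fold (0.185%), and 0 with centring by intensity (4.23%), which gave 15 lower (9.33%), or on the spiked-in RNAs (0.369%). With both arrays scaled to the same median, 9 mean intensities moved by more than their SD, and the largest change of any was 14.3%. Averaging all probe sets changed nothing, since each member had 1. Leaving out members with a near-identical protein was not run, and leaving out those that share a probe set gave a median of -0.72 for all members. The centring on the spiked-in RNAs, the replicate left out of the background count, the limit to members without shared probe sets and, for the counts past 2-fold, that to members above background were chosen after the data were seen. No ratio exists without either replicate.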
